A study of Mus musculus with 4 samples.

Results

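The 10 genes described here encode lectin-like natural killer (NK) receptors outside the Ly49 family and the adaptors that signal for them. They were chosen by symbol from the 32285 genes of the deposited tables, and all 10 were found. The 7 receptors were Klrd1, Klrc1, Klrc2, Klrk1, Klre1, Klri2 and Klrb1c, and the 3 adaptors were Fcer1g, Hcst and Tyrobp. Their transcripts were counted in single invariant natural killer T (iNKT) cells from the thymus of mice 6 to 8 weeks old, enriched magnetically and then sorted as CD3+ CD1d tetramer+ cells. There were 2 libraries labelled ACC1 KO, whose genotype is given as a knockout, and 2 libraries labelled WT, numbered 1 and 2 in each genotype. ACC1, the product of Acaca, is the enzyme that starts fatty acid synthesis from acetyl-CoA, and the series concerns what it does for thymic iNKT cells. The sources used here name neither the deleted part of the gene nor a Cre line or strain, and do not say how libraries relate to single mice. The p-values below therefore measure the spread between these libraries, which may in part be technical.

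iNKT cells are T cells with a semi-invariant antigen receptor for lipids held by CD1d. In the thymus they mature into iNKT1, iNKT2 and iNKT17 cells, and iNKT1 cells share much of their receptor set with NK cells. CD94 (Klrd1) pairs with NKG2A (Klrc1), which inhibits, or with NKG2C (Klrc2), which activates through the adaptor DAP12 (Tyrobp), and both pairs recognise the non-classical class I molecule Qa-1. NKG2D (Klrk1) recognises stress-induced ligands and signals through DAP10 (Hcst) and, in mouse, also through DAP12. KLRE1 (Klre1) pairs with KLRI1 to inhibit or with KLRI2 (Klri2) to activate. NK1.1 (Klrb1c), the surface marker after which NKT cells were named, signals through the Fc receptor gamma chain (Fcer1g).

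The libraries held 33205137 and 74190167 unique molecular identifiers (UMIs, counted once per molecule) in ACC1 KO 1 and 2, against 29066597 and 72803841 in WT 1 and 2. Of 28247 filtered cells, 27024 lay in 15 iNKT clusters, with a median of 4473 and 7337 UMIs per cell in ACC1 KO and 4647 and 6208 in WT. The clusters were built and named without the 10 genes, the Ly49 genes or any other Klr gene, 29 genes in all. Named from markers of other genes, they held 21401 iNKT1-like cells in 6 clusters, 2637 interferon-responding cells, 1246 iNKT2-like cells, 1060 cycling cells, 364 iNKT0-like cells (early precursors) and 212 iNKT17-like cells. The libraries numbered 1 carried the Y-linked Ddx3y (77.6 CPM in ACC1 KO and 82.3 CPM in WT, where CPM is a count scaled to the class total of its library), and those numbered 2 carried Xist (651 CPM in ACC1 KO and 588 in WT) and were the deeper ones. Acaca was at 47.3 and 60.4 CPM in ACC1 KO iNKT cells, against 34.5 and 32.0 CPM in WT iNKT cells. This count from the 3′ end does not check the labels, because the deleted part is not given. Any pair of libraries shared 10 to 27 cell barcodes.

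Of other cells that can carry these genes, NK cell markers were low in the iNKT1-like cells. Myeloid and gamma-delta T cell markers had larger sums. The 8 NK cell markers summed to 23.9 and 20.7 CPM in ACC1 KO and to 28.2 and 30.7 CPM in WT, with 2 or 3 of them above 1 CPM, Ncr1 at 0.296 to 0.497 CPM and Cma1 at 0 in all 4 libraries. Most of that sum was Irf8, at 10.2 and 6.96 CPM in ACC1 KO and 16.3 and 14.0 CPM in WT, and Zeb2, at 9.21 and 10.2 CPM in ACC1 KO and 10.2 and 14.5 CPM in WT. The 13 myeloid markers summed to 142 and 141 CPM in ACC1 KO and to 159 and 169 CPM in WT, most of it Cst3 and Ctss, with 2 or 3 markers above 1 CPM and Lyz2 at no more than 0.441 CPM. The 6 gamma-delta T cell markers summed to 204 and 153 CPM in ACC1 KO and to 395 and 307 CPM in WT, with 4 above 1 CPM in each library. In iNKT2-like cells they summed to 170 and 208 CPM in ACC1 KO and to 388 and 209 CPM in WT. Such sums were thus not particular to the iNKT1-like cells. The part of such cells in the genotype values below was not tested.

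All 7 receptor genes lie on mouse chromosome 6 (GRCm38), in the NK gene complex. From Klrb1c (chr6:128778485-128789215, minus strand) to Klri2 (chr6:129729041-129740484, minus strand) the span is 962 kb. The other receptors lie near Klri2, in a stretch of 163 kb that opens with Klre1 (chr6:129577905-129585827, plus strand) and goes on through Klrd1 (chr6:129591782-129598775, plus strand), Klrk1 (chr6:129610323-129623864, minus strand), Klrc2 (chr6:129647496-129660689, minus strand) and Klrc1 (chr6:129666015-129678973, minus strand). The adaptor genes lie elsewhere. Tyrobp (chr7:30413760-30417585, plus strand) and Hcst (chr7:30417712-30419854, minus strand) are neighbours with opposite orientation on chromosome 7, and Fcer1g (chr1:171229572-171234365, minus strand) is on chromosome 1. The libraries count reads near transcript ends, and some ends are near copies of each other. Of the 31-base words in the last 500 bases of the Klrc1 transcripts, 51.0% also occur in Klrc2, and of those of Klrc2, 16.3% occur in Klrc1. Over all other genes the shares were 57.6% for Klrc1, 21.4% for Klrc2, 22.1% for Klrb1c and 11.5% for Klri2. Values of these genes are uncertain for that reason, to an extent that was not measured.

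Because the receptors moved together across classes, the 250 bases before their starts were read from the RefSeq promoter table (GRCm38.p6), which gave 9 windows for 7 of the 10 genes, all but Klrd1, Klri2 and Tyrobp. The windows were searched on both strands for the letters TGTGGT, the RUNX core, which reads ACCACA on the opposite strand. The T-box letters GGTGTGA, reading TCACACC on the opposite strand, and the ETS core ACTTCC, reading GGAAGT there, were searched likewise. These motifs were chosen after the windows had been read and do not overlap each other in them. The RUNX core was found before Klrb1c, Klre1, Klrk1, Klrc2 and Klrc1, 5 of the 7 genes in at least 1 window, while 14.0% of 32851 promoter windows of the same length hold it. Klre1 and Klrc2 had more than 1 window, and Klre1 held the match in only 1 of its windows. The first count is by gene and the second by window, for a motif chosen after reading. The contrast is therefore no test of enrichment. The T-box letters were in 0 of 7, against 3.33% of all windows. The ETS core was found before Klrb1c and Hcst, against 19.7% of all windows. A match describes letters and not a bound site. Windows for an inhibitory receptor, for NKG2D and for NK1.1 show the match, in capitals, at different distances from the start. They are chr6:129678974-129679223 for Klrc1, chr6:129623865-129624114 for Klrk1 and chr6:128788642-128788891 for Klrb1c, all given on the minus strand, 5′ to 3′:
Klrc1: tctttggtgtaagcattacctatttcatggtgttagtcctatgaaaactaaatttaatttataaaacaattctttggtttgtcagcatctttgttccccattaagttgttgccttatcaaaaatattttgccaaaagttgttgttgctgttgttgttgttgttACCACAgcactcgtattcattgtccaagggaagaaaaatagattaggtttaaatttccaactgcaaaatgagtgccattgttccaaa
Klrk1: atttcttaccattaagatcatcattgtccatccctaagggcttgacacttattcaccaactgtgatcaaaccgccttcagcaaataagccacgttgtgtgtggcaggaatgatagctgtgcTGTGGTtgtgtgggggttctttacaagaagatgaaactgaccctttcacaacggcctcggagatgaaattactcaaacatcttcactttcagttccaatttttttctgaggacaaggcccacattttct
Klrb1c: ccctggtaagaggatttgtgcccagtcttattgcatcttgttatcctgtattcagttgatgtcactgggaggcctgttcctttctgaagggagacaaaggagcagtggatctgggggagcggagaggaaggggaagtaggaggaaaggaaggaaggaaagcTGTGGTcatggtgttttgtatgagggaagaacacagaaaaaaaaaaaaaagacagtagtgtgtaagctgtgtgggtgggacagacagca

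Every receptor and adaptor was higher in iNKT1-like than in iNKT2-like cells, in all 4 libraries. Klrc1 and Tyrobp had too few UMIs in iNKT2-like cells to pass the filter of a fit within that class. Klri2 fell below the class fit's own filter in the iNKT2-like cells of ACC1 KO 2 (0.704 CPM) and WT 1 (0.613 CPM). It entered that fit only through the iNKT1-like cells in which it is high. The differences of Klrc1, Tyrobp and Klri2 are given as a description. The other members were all called higher by edgeR's quasi-likelihood test with the library as a term (Benjamini-Hochberg adjusted p under 0.05). Of the 12366 genes tested, 27.0% were called higher and 27.0% lower. Of all genes, 3.06% were called higher with a log2 difference above 2, and so were all of those members but Hcst. Among other Klr genes kept out of the clustering and named after their values were seen, Klrc3 averaged 25.1 CPM in iNKT1-like and 1.14 CPM in iNKT2-like cells, with 43.8% of its end words in other genes. Klrb1f averaged 7.54 and 0.984 CPM, Klrb1b 5.15 and 0.0352 CPM, and Klrb1a 1.78 and 3.01 CPM in the same classes, levels given with no test.

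The CD94 and NKG2 genes, which form the Qa-1 receptors, were all far higher in iNKT1-like than in iNKT2-like cells. Klrd1 was at 644 and 479 CPM in ACC1 KO iNKT1-like cells and at 698 and 580.0 CPM in WT iNKT1-like cells. In iNKT2-like cells it was at 51.7 and 27.9 CPM in ACC1 KO and 25.1 and 38.2 CPM in WT, so the classes did not overlap in any library, and the log2 difference was 4.10 ± 0.13 (SE, adjusted p = 9.1e-13). The inhibitory partner Klrc1 averaged 85.5 ± 32.0 CPM (SD, n = 4 libraries) in iNKT1-like cells and 2.70 ± 1.82 CPM in iNKT2-like cells, a fitted log2 difference of 5.01 ± 0.14. The activating partner Klrc2 averaged 158 ± 49.0 CPM in iNKT1-like cells and 6.69 ± 5.65 CPM in iNKT2-like cells, a log2 difference of 4.66 ± 0.25 (adjusted p = 8.6e-06). Both partners of CD94 were low in the class where CD94 was low.

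Klrk1, the NKG2D gene, was at 616 and 612 CPM in ACC1 KO iNKT1-like cells and at 551 and 704 CPM in WT iNKT1-like cells. In iNKT2-like cells it was at 29.1 and 17.2 CPM in ACC1 KO and at 9.19 and 36.5 CPM in WT. In double-positive (DP) thymocyte-like cells, which should lack these receptors, it was at 10.8 and 16.2 CPM in ACC1 KO. The WT values there were 16.7 and 9.95 CPM. The iNKT2-like level was thus near that background in ACC1 KO 2 and below it in WT 1. In B cell-like cells Klrk1 was at 15.9 and 31.9 CPM in ACC1 KO and at 12.2 and 104 CPM in WT. The iNKT2-like level was above those values in ACC1 KO 1 alone, and WT 2 held only 16 B cell-like cells. The log2 difference between iNKT1-like and iNKT2-like cells was 4.84 ± 0.24 (adjusted p = 1.7e-05). Klre1 averaged 247 ± 29.5 CPM in iNKT1-like cells and 9.80 ± 4.66 CPM in iNKT2-like cells, and its activating partner Klri2 averaged 53.8 ± 11.2 CPM and 2.30 ± 1.90 CPM in the same classes. Their log2 differences, 4.66 ± 0.12 for Klre1 (adjusted p = 4.4e-17) and a fitted 4.64 ± 0.24 for Klri2, were close to those of the NKG2 genes.

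NK1.1 had another profile. Klrb1c was at 447 and 214 CPM in ACC1 KO iNKT1-like cells and at 350 and 236 CPM in WT iNKT1-like cells, and in iNKT2-like cells at 52.7 and 26.5 CPM in ACC1 KO and at 17.8 and 28.4 CPM in WT. The log2 difference was 3.30 ± 0.14 (adjusted p = 3.8e-09). It was also the receptor with a clear level in iNKT17-like cells, at 80.7 and 75.2 CPM in ACC1 KO and at 100.03 and 127 CPM in WT, above the iNKT2-like level of the same library in all 4 libraries. The other 6 receptors averaged 1.08 to 30.7 CPM in iNKT17-like cells. The iNKT17-like sums rest on 24 and 31 cells in ACC1 KO and 78 and 79 cells in WT and were not tested.

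The adaptors differed from each other. Fcer1g averaged 266 ± 49.9 CPM in iNKT1-like cells and 27.3 ± 11.96 CPM in iNKT2-like cells, a log2 difference of 3.28 ± 0.16 (adjusted p = 2.0e-07). Tyrobp was low, at 17.9 and 18.9 CPM in ACC1 KO and 17.2 and 27.0 CPM in WT iNKT1-like cells, against 1.28 and 1.13 CPM in ACC1 KO and 2.45 and 2.37 CPM in WT iNKT2-like cells (fitted log2 difference 3.75 ± 0.22). It was at 0 in the iNKT17-like cells of all 4 libraries. In the 86 myeloid-like cells of the same libraries Tyrobp averaged 1192 CPM and Fcer1g 1286 CPM. Hcst, the DAP10 gene, was spread over all classes, at 640 ± 121 CPM in iNKT1-like, 265 ± 30.04 CPM in iNKT2-like and 416 ± 57.8 CPM in iNKT17-like cells. Its log2 difference of 1.32 ± 0.09 (adjusted p = 3.5e-11) was the smallest of the 10.

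**Figure D1:**
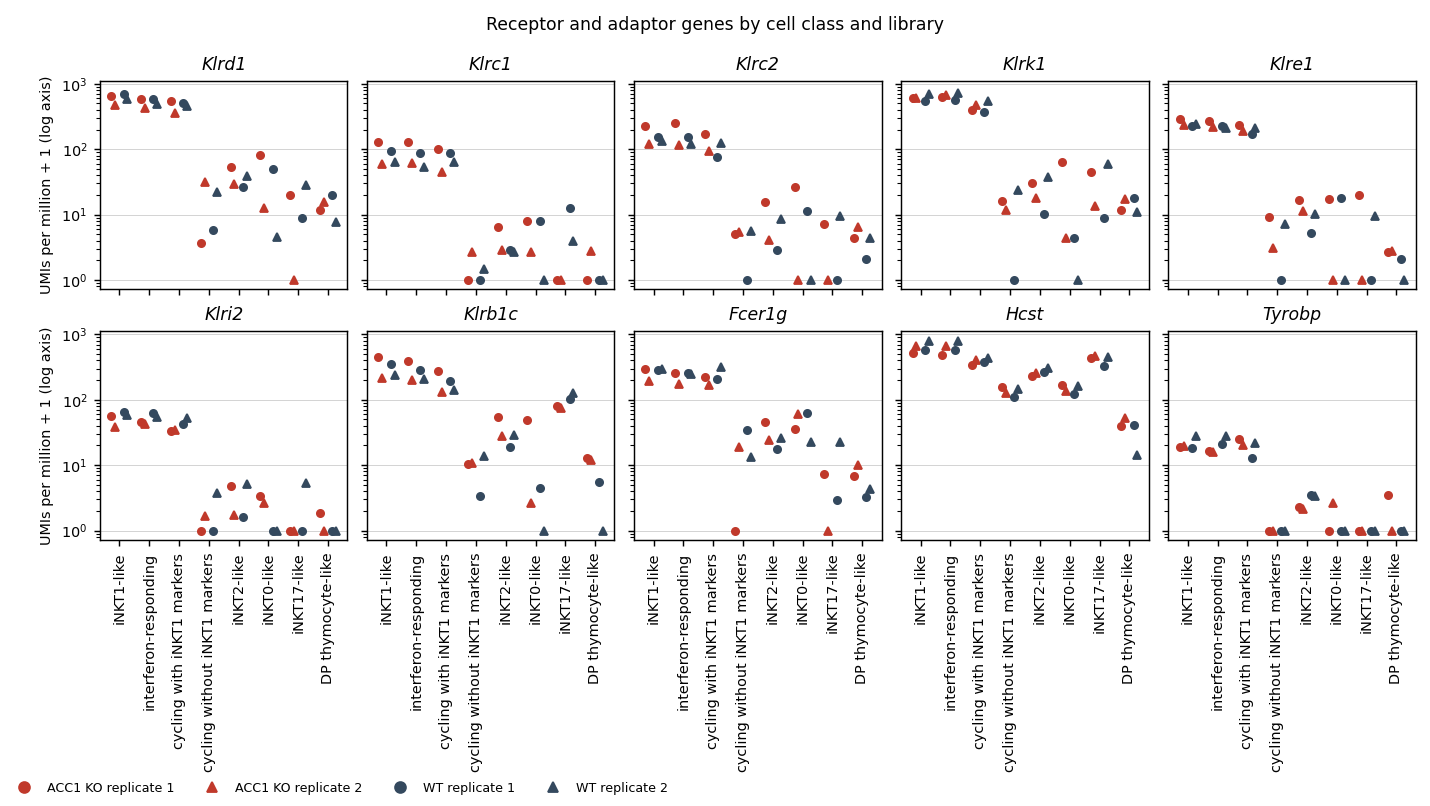
CPM plus 1 (log axis) of each gene in each cell class, with 1 point per library (red ACC1 KO, dark blue WT; circles replicate 1, triangles replicate 2). The iNKT1-like, interferon-responding and cycling cells with iNKT1 markers form the high group for all genes but Hcst, whose iNKT17-like values reach into it, and Klrb1c and Hcst are higher in iNKT17-like than in iNKT2-like cells in all 4 libraries.

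For the receptors, interferon-responding cells and cycling cells with iNKT1 markers lay on the high side. Cycling cells without those markers lay on the low side. In interferon-responding cells the receptors were near their iNKT1-like levels, with Klrd1 at 524 ± 80.0 CPM and Klrk1 at 647 ± 72.4 CPM (SD, n = 4). Cycling cells with iNKT1 markers (767 cells) had 465 ± 80.7 CPM of Klrd1, while cycling cells without them (293 cells) had 14.9 ± 13.4 CPM. Klrk1 was at 446 ± 74.9 CPM in the first and 12.1 ± 9.56 CPM in the second of these. Every receptor and Hcst, but not Fcer1g and Tyrobp, was lower in cycling cells with iNKT1 markers than in iNKT1-like cells in each library. Klrb1c averaged 184 CPM there against 311 CPM in iNKT1-like cells, and Hcst 389 against 640 CPM. The iNKT0-like cells, with Klrd1 at 35.6 ± 34.8 CPM and Klrk1 at 17.4 ± 30.3 CPM, were as low as iNKT2-like cells within the spread of the libraries, with the highest values in ACC1 KO 1. A further 104 cells in a cluster left unnamed had Klrd1 at 160 to 1156 CPM and are not described further. These levels are given as a description and the order of the low classes cannot be told from the spread.

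Per cell, most iNKT1-like cells carried CD94, NKG2D and NK1.1 transcripts. Klrd1 had a UMI in 85.0 to 90.5% of iNKT1-like cells over the 4 libraries, Klrk1 in 66.4 to 85.4% and Klrb1c in 66.2 to 80.4%. In double-positive (DP) thymocyte-like cells, which should lack these receptors, the shares were 0.935 to 3.41% for Klrd1 and 0 to 3.33% for Klrb1c. In B cell-like cells they were 0.820 to 31.3% for Klrd1 and 0.820 to 12.5% for Klrb1c, with only 16 such cells in WT 2. The median depth was 4349 to 7105 UMIs in iNKT1-like cells. It was 2174 to 3172 UMIs in DP thymocyte-like and 3171 to 8080 UMIs in B cell-like cells. With every cell thinned to 2000 UMIs, which leaves out 84 of the iNKT1-like cells, the mean share was 63.9% for Klrd1, 59.7% for Klrk1, 42.7% for Klrb1c, 30.6% for Klre1, 24.3% for Klrc2, 12.1% for Klrc1 and 7.39% for Klri2. In thinned iNKT2-like cells the same shares were 4.52% for Klrd1, 2.60% for Klrk1 and 4.73% for Klrb1c. The thinned share of iNKT17-like cells with Klrb1c was 14.1 to 20.3%. Among adaptors, Hcst had a UMI in 70.3% of thinned iNKT1-like cells, Fcer1g in 29.5% and Tyrobp in 3.17%.

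A thinned iNKT1-like cell held UMIs of 2.77 and 2.18 of the 7 receptors on average in ACC1 KO 1 and 2, against 2.35 and 2.32 in WT 1 and 2. None of the 7 was seen in 3.74 and 6.44% of such cells in ACC1 KO and in 8.05 and 5.38% in WT, and 3 or more in 57.7 and 37.5% in ACC1 KO and in 44.6 and 42.0% in WT. The 2 ACC1 KO libraries lie on either side of the WT libraries in the mean and in the share with 3 or more.

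The iNKT1-like cells were not uniform for the receptor pairs. In cluster 1, led by Atp8a2, Setbp1 and Cd226, Klri2 was at 10.7 ± 4.02 CPM (SD, n = 4 libraries), where the other 5 clusters had means of 44.5 to 75.0 CPM. Fcer1g was at 55.1 ± 18.9 CPM there, against means of 285 to 393 CPM elsewhere, and Klre1 at 122 ± 29.0 CPM against 202 to 294 CPM. Tyrobp was at 7.85 ± 2.97 CPM in cluster 1 and at 10.6 ± 2.39 CPM in cluster 7, led by Egr3, Izumo1r and Ccl4, against 21.5 to 27.2 CPM in the other 4. Klrd1, Klrb1c and Hcst varied little, with cluster means of 555 to 677 CPM, 292 to 395 CPM and 565 to 751 CPM. Cluster 7 was the lowest for Klrc1, at 32.7 ± 12.5 CPM, and cluster 3, led by Gm4208, Gzma and Ifitm2, the highest, at 122 ± 49.1 CPM. Cluster 3 held 1347 and 1608 cells in ACC1 KO against 235 and 535 in WT, and cluster 7 held 94 and 112 in ACC1 KO against 525 and 413 in WT, so the mix of clusters differed between the genotypes.

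**Figure D2:**
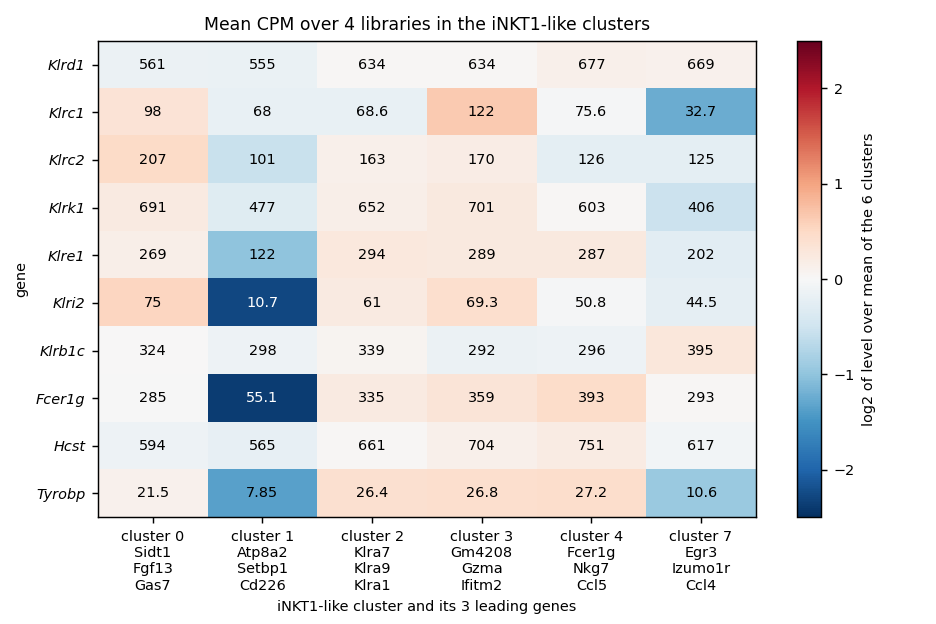
Mean CPM over 4 libraries of each gene (rows) in the 6 iNKT1-like clusters (columns, with their 3 leading genes), coloured by the log2 of the level over the mean of the clusters. Cluster 1 is low for Klri2, Fcer1g, Tyrobp and Klre1 while Klrd1, Klrb1c and Hcst are even across clusters.

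Detection in the same cell was compared with the product of the separate shares, in thinned iNKT1-like cells and within each library, over 45 pairs of genes. The adaptors Fcer1g and Tyrobp were found together 1.68 to 1.80 times as often as that product. Before thinning, 167 and 325 iNKT1-like cells in ACC1 KO and 145 and 523 in WT had UMIs of both, and of these 1 and 1 in ACC1 KO and 0 and 0 in WT also had a UMI of Lyz2, a myeloid gene. Klre1 and its partner Klri2 had a ratio of 1.15 to 1.44, Klre1 and Fcer1g 1.32 to 1.48, and Klri2 and Fcer1g 1.46 to 1.69. Klrc1 and Klrc2, which compete for CD94, had 1.16 to 1.37, although they share 3′ sequence, whose part in this value was not tested. CD94 with its partners was close to 1, at 0.891 to 0.987 for Klrc1 and 1.01 to 1.07 for Klrc2, and so was NKG2D with DAP10, at 0.988 to 1.02. The pair below 1 by the most was the inhibitory Klrc1 with the activating Klri2, at 0.570 to 0.814, below 1 in all 4 libraries. Without cluster 1, an alternative added after seeing the data, the ratio was 1.32 to 1.58 for Fcer1g and Tyrobp, 1.30 to 1.44 for Klri2 and Fcer1g, and 0.541 to 0.783 for Klrc1 and Klri2. For Klre1 and Klri2 it was 1.05 to 1.35, and for Klrc1 and Klrc2 0.999 to 1.26, no longer above 1 in every library. These ratios describe cells of the same 4 libraries and carry no p.

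**Figure D3:**
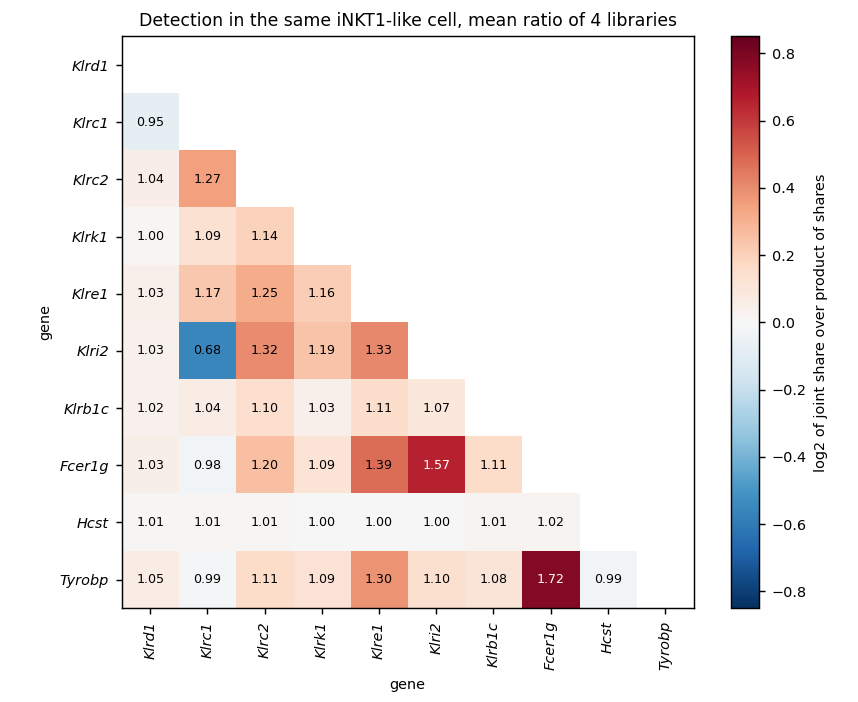
Ratio of the share of thinned iNKT1-like cells with UMIs of both genes to the product of their shares, as the mean of 4 libraries (numbers) and its log2 (colour). Fcer1g with Tyrobp stands highest and Klrc1 with Klri2 lowest.

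Between the genotypes, none of the 10 genes was called in any class by the test of 2 libraries against 2, and in iNKT1-like cells the libraries of the genotypes overlapped for 8 of the 10. There the sign of the difference changed for the same 8 genes when 1 library was left out. It stayed for Klre1 and Klri2, which follows from the order of their libraries and is no further check. Values here are CPM scaled by the trimmed mean of M-values (TMM), and that test is edgeR's quasi-likelihood test with no further term. In all iNKT cells 0 of 10 genes were called, as were 0 of 14725 genes tested (0%), while 727 genes (4.94%) had an unadjusted p under 0.05 and DESeq2 called 107 (0.696%). In iNKT1-like cells 0 of 10 were called, where 0.0147% of 13650 genes were. There DESeq2 called 82 genes (0.504%), none of them among the 10, and 500 genes (3.66%) had an unadjusted p under 0.05, again none of the 10. The median log2 difference of the 10 genes was -0.15 in all iNKT cells and -0.02 in iNKT1-like cells, with all genes at -0.01 and 0.0016.

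Klri2 was the member that was lower in ACC1 KO most often. In iNKT1-like cells it was at 56.4 and 39.9 scaled CPM in ACC1 KO and at 59.2 and 58.3 in WT. Both ACC1 KO libraries were below both WT libraries, as for 14.3% of all genes tested, and the log2 difference was -0.29 ± 0.19 (SE, edgeR adjusted p = 0.9998). It ranged from -0.06 without ACC1 KO 2 to -0.55 without ACC1 KO 1. In interferon-responding cells it was at 44.2 and 43.8 scaled CPM in ACC1 KO and 57.6 and 53.2 in WT, and in cycling cells at 22.5 and 20.7 in ACC1 KO and 24.0 and 30.4 in WT. With all iNKT cells, where it was at 45.1 and 32.3 in ACC1 KO and 52.4 and 53.1 in WT (log2 difference -0.45 ± 0.19), the genotypes did not overlap in 4 of the 5 comparisons. These share libraries and, for all iNKT cells, also cells. Both ACC1 KO libraries were below both WT libraries for 15.3% and above them for 14.2% of genes in all iNKT cells, for 14.4% each in interferon-responding cells, and for 13.5% and 14.4% in cycling cells. With the same mix of iNKT1-like clusters in each library, an alternative added after seeing the data, the difference was -0.63 ± 0.23, still not called, and those of the adaptors Fcer1g and Tyrobp were -0.40 ± 0.22 and -0.44 ± 0.20.

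Klre1, the partner of Klri2, lay the other way. It was at 294 and 249 scaled CPM in ACC1 KO iNKT1-like cells and at 209.9 and 239 in WT, a log2 difference of 0.27 ± 0.16. Both ACC1 KO libraries were above both WT libraries, as for 13.2% of genes, in iNKT1-like cells and likewise in iNKT2-like cells (12.4% of genes) and interferon-responding cells (14.4%). With the same mix of clusters the difference shrank to 0.07.

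For the CD94 and NKG2 genes the 2 ACC1 KO libraries lay further apart than the 2 WT libraries. Klrc1 was at 129.9 and 62.3 scaled CPM in ACC1 KO iNKT1-like cells and at 85.2 and 63.5 in WT. Klrc2 was at 232 and 126 in ACC1 KO and 142 and 134 in WT. In both genes ACC1 KO 1 was the highest library and the other ACC1 KO library the lowest. Klrd1 was at 651 and 506 in ACC1 KO and 651 and 583 in WT, and its log2 difference was -0.09 ± 0.20. For Klrc1 and Klrc2 the fitted differences were 0.37 ± 0.36 and 0.38 ± 0.29, and both changed sign without ACC1 KO 1, to -0.25 and -0.12.

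Klrk1 was at 622 and 647 scaled CPM in ACC1 KO iNKT1-like cells and at 514 and 707 in WT, with a log2 difference of 0.06 ± 0.21. Klrb1c was at 452 and 226 in ACC1 KO and 326 and 237 in WT, so that in both genotypes the library numbered 1 was the higher. Its log2 difference was 0.27 ± 0.36 and changed sign to -0.31 without ACC1 KO 1. Fcer1g was at 298 and 202 in ACC1 KO and 269 and 291 in WT, and the fitted difference was -0.16 ± 0.22. Hcst was at 532 and 701 in ACC1 KO and 532 and 804 in WT, with the library numbered 2 higher in both genotypes. Tyrobp was at 18.1 and 19.995 in ACC1 KO and 16.1 and 27.1 in WT. In interferon-responding cells Tyrobp was at 15.2 and 15.6 in ACC1 KO and 19.4 and 27.1 in WT, a log2 difference of -0.62 ± 0.24 with an unadjusted p of 0.033 and an edgeR adjusted p of 0.9997. It was the only member with an unadjusted p under 0.05 in that class, where edgeR called 0.00966% of genes, DESeq2 called 0.0691% and 3.62% had an unadjusted p under 0.05.

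**Figure D4:**
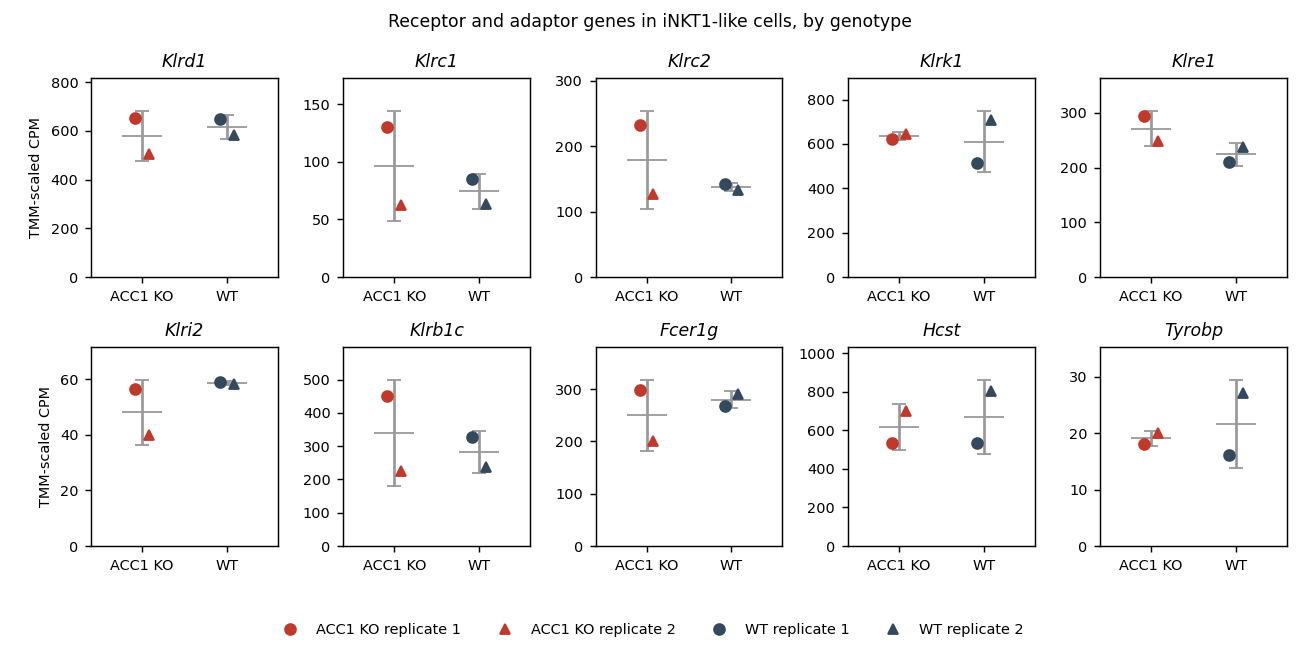
TMM-scaled CPM of each gene in the iNKT1-like cells of the 4 libraries, ACC1 KO left (red) and WT right (dark blue), with the mean and SD (n = 2 per genotype) as grey lines. Klri2 is below both WT libraries and Klre1 above them in both ACC1 KO libraries, and the genotypes overlap for the other 8 genes.

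In iNKT2-like cells 8 of the 10 genes had counts enough for a fit, and Klrc1 and Tyrobp did not. None was called, nor was any of 10279 genes (0%), with 2.35% at an unadjusted p under 0.05 and 0.0110% called by DESeq2. Among the 8, Hcst was lower in both ACC1 KO libraries than in both WT libraries, as 12.8% of genes were. The 8 genes had a median log2 difference of 0.44, against -0.0017 over all genes tested there, on levels of 0.612 to 309 scaled CPM. ACC1 KO 1 was the highest library for Klrd1, at 51.6 scaled CPM against 28.1 in ACC1 KO 2 and 25.1 and 38.9 in WT, and likewise for Klrb1c and Fcer1g. In DP thymocyte-like cells Klrb1c was at 11.7 and 10.8 CPM in ACC1 KO and 4.46 and 0 CPM in WT. These values rest on 14 and 6 UMIs in ACC1 KO and 4 and 0 UMIs in WT. Fcer1g was at 5.83 and 9.02 CPM in ACC1 KO and 2.23 and 3.32 CPM in WT there. Its values rest on 7 and 5 UMIs in ACC1 KO and 2 and 1 UMIs in WT. Klrd1 and Klrk1 overlapped between the genotypes. With so few UMIs, a genotype difference in this background cannot be told. The part of such background in the iNKT2-like values was not tested. In cycling cells 0 of 10 were called, where 0.0279% of 10754 genes were, DESeq2 called 0.0383% and 2.41% had an unadjusted p under 0.05. Whether the genotype difference differed between iNKT1-like and iNKT2-like cells was tested as an interaction. None of the 10 was called, where 0.0809% of 12366 genes were and 773 (6.25%) had an unadjusted p under 0.05. Fcer1g came nearest, with an interaction of -0.75 ± 0.21 on the log2 scale (unadjusted p = 0.0015, edgeR adjusted p = 0.299).

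**Figure D5:**
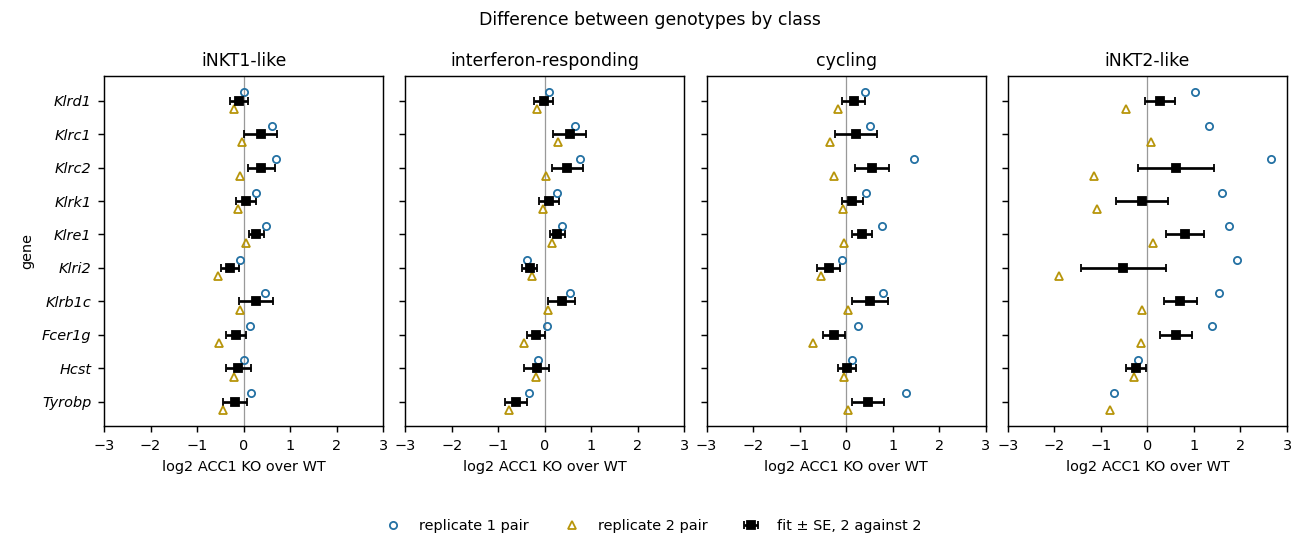
Log2 difference of ACC1 KO over WT by class for each gene, as the fit with its SE (black squares, 2 libraries against 2) and within the libraries numbered 1 (blue circles) and numbered 2 (yellow triangles). In iNKT1-like cells the pair numbered 1 lies to the right of the pair numbered 2 for all 10 genes, and Klri2 is the gene for which both pairs and the fit lie below 0 in the iNKT1-like, interferon-responding and cycling panels.

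Other genes of the pathway were read from lists, and the genes named are the up to 4 of each list with the smallest unadjusted p in all iNKT cells. Of 7 other lectin receptors of the NK complex tested in all iNKT cells, edgeR called 0 and DESeq2 called 1, Klri1, lower. KLRI1 is the inhibitory partner of KLRE1. Its gene had 2 UMIs over both ACC1 KO libraries and 76 over both WT libraries, a ratio of 0.0244 after correcting for depth (95% counting interval 0.0029 to 0.0912). It was at 0.0351 and 0.0154 CPM in ACC1 KO and at 1.48 and 0.649 CPM in WT, with a log2 difference of -5.33 ± 0.78 and an adjusted p of 0.342 by edgeR and 0.0066 by DESeq2. Of the 31-base words at its transcript end, 26.4% also occur in Klri2. Klri1 was thus near the limit of detection. Klri2, the other gene that pairs with Klre1, was also lower in ACC1 KO but not called by the test of 2 libraries against 2. Whether the shared end words tie their values was not tested. The other lectin receptors of that list had log2 differences of -0.89 ± 0.60 for Klrb1a, -0.62 ± 0.25 for Klrb1b and 0.41 ± 0.27 for Cd69. Among the 7 ligand genes tested 0 were called by either tool. They include Clec2g (-2.40 ± 0.89, at no more than 0.564 scaled CPM), Clec2i (-0.17 ± 0.27) and Clec2d (-0.15 ± 0.58), which belong to the family that NKR-P1 receptors recognise, and Ulbp1 (0.34 ± 0.16), an NKG2D ligand.

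Of 11 NK-type receptors outside the lectin family, edgeR called 0 and DESeq2 called 2, both lower. Cd160, a receptor for the ligand HVEM, was at 40.9 and 32.5 scaled CPM in ACC1 KO iNKT cells and 87.1 and 77.4 in WT (log2 difference -1.17 ± 0.17, adjusted p = 0.342 by edgeR and 1.4e-05 by DESeq2). Cd244a, the 2B4 receptor of the SLAM family, was at 6.17 and 6.91 in ACC1 KO and 12.3 and 15.3 in WT (log2 difference -1.08 ± 0.19, adjusted p = 0.473 by edgeR and 0.0081 by DESeq2). Slamf7, of the same family, was at 101 and 103 in ACC1 KO and 141 and 153 in WT (log2 difference -0.53 ± 0.12, edgeR adjusted p = 0.651). Cd226, the DNAM-1 receptor, was at 194 and 147 in ACC1 KO and 298 and 214 in WT (log2 difference -0.59 ± 0.23). All of these were lower in both ACC1 KO libraries than in both WT libraries, 4 of the 11 genes, where 15.3% of all genes were. Cd226 and Cd160 are among the leading genes of the iNKT1-like clusters 1 and 7. Cluster 7 held fewer ACC1 KO than WT cells, and so did cluster 1, with 712 and 537 cells in ACC1 KO against 1252 and 1460 in WT. The part of this shift was not tested. The median of the list was -0.36, against -0.01 over all genes tested. Of 17 signalling proteins downstream of the adaptors and 21 regulators of the iNKT1 and NK program, neither tool called any in all iNKT cells, and the list medians were -0.01 and -0.05. Of the kinases, phosphatases and lipases that act on the adaptors' signals, the differences were 1.22 ± 0.25 for Syk, the kinase that binds the adaptors' tyrosine motifs, at 4.00 and 4.54 scaled CPM in ACC1 KO and 2.10 and 1.61 in WT. They were 0.56 ± 0.33 for Plcg2, 0.20 ± 0.13 for Pik3cd and -0.22 ± 0.14 for Inpp5d. Of the transcription factors they were 0.64 ± 0.18 for Id3, 0.61 ± 0.18 for Bhlhe40, 0.48 ± 0.17 for Lef1 and -0.40 ± 0.17 for Ikzf3, all without a call. The share of iNKT2-like cells among iNKT cells was 6.55 and 6.62% in ACC1 KO, against 3.73 and 2.12% in WT, and its part in these sums was not tested. Within iNKT1-like cells the differences were -0.80 ± 0.23 for Id3, -0.07 ± 0.18 for Lef1, 1.04 ± 0.30 for Syk and 0.72 ± 0.18 for Bhlhe40, so that of Id3 had the other sign.

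Across 16 sums, of 4 libraries in 4 classes, the genes most like Klrd1 by Pearson's r of log levels were Itgb1 (0.991), Klra9 (0.989) and Tm6sf1 (0.988). Klrk1 was most like Itga1 (0.994), Styk1 (0.993) and Klra9 (0.990), and Fcer1g most like Klra9 (0.987), Klra5 (0.983) and Slamf7 (0.981). Klrb1c was most like Il10ra (0.981), Gpr174 (0.977) and Tnfaip8 (0.976), and Tyrobp most like Ifitm10 (0.968), Dapk2 (0.964) and Nkg7 (0.958). The sums share libraries and classes, so these values describe the pattern and carry no test.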

How the data were processed

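The authors deposited counts of UMIs per gene and cell barcode for 4 libraries of 10x 3′ v3.1 chemistry, made with Cell Ranger 7.0.0 on the mm10 build (submitters' processing notes, and the tool also per the file headers). The count matrices were used as deposited. Barcodes needed 500 genes, 1000 UMIs and less than 10% mitochondrial counts. The cells with the highest doublet scores were removed at an assumed rate of 0.8% per 1000 cells, which came to 4.36 to 7.91% per library. Cells were clustered (scanpy 1.11.5, Leiden resolution 1, 2000 variable genes, 30 principal components) into 21 clusters without 29 receptor and adaptor genes. For this, variable genes were chosen and expression was scaled within each replicate number, over both genotypes. Clusters were named from marker lists, with limits on the marker scores set after seeing the data, so names are rebuilt and not the authors'. Counts were summed per library and class and fitted with edgeR 4.0.16 in R 4.3.3 (TMM, filterByExpr, robust quasi-likelihood, Benjamini-Hochberg over all genes tested, threshold 0.05). DESeq2 1.42.0, other filters, resolutions, left-out libraries, thinning, equal class or cluster mixes and a replicate block were alternatives. On simulated counts the all-iNKT fit was checked for recovery of known changes. The 10 genes and all lists were chosen with earlier results of these data known. Named genes are the members, up to 4 genes per list by unadjusted p, and the 3 genes most like each of 5 members by Pearson's r of log2(CPM + 5), among genes with a mean of at least 20 CPM. Positions are from GENCODE M21 (GRCm38). Intervals on counts cover counting error only.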

Additional observations from a re-analysis of the deposited data

Results flagged for a closer look

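Within iNKT1-like cells, the ACC1 KO minus WT difference was on opposite sides of 0 in the pair of libraries numbered 1 and the pair numbered 2 for 8 of the 10 genes. For Klrd1 and Hcst this rests on a difference of 0.00036 and 7.1e-05 in the pair numbered 1, in effect a tie, which leaves 6. The difference between the pairs was not tested, since each holds 1 library per genotype. The pair numbered 1 minus the pair numbered 2 came to 0.79 on the log2 scale for Klrc2, 0.68 for Fcer1g, 0.64 for Klrc1, 0.61 for Tyrobp, 0.54 for Klrb1c, 0.41 for Klrk1, 0.20 for Klrd1 and 0.20 for Hcst. Klre1 and Klri2 kept their signs in both pairs, which follows from their libraries not overlapping between the genotypes. The pairs also differ in depth and in Ddx3y and Xist, whose part in this was not tested.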

How the results depend on the processing

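The class comparison kept direction and side of the threshold in every alternative for the members other than Klrc1, Tyrobp and Klri2. For these, whose differences are given as a description, only the direction is reported, and it was kept too. Between genotypes, 148 of 160 member values in all iNKT cells and 137 of 150 in iNKT1-like cells kept direction and side of the threshold, as did 16 of 16 for iNKT2-like, 16 of 20 for interferon-responding and 19 of 20 for cycling cells. Counts of genes called moved more. In all iNKT cells they were 0 in the main fit, 107 by DESeq2, 343 with no filter on low counts, 4 with sums thinned to the smallest total, and 0 to 21 when libraries were left out in turn. In iNKT1-like cells they were 2, then 82 by DESeq2, 224 with no filter, 0 at a mean of at least 10 CPM, 0 with thinned sums, 1 at Leiden resolution 0.5 and 1 at resolution 2, and 10 to 21 with libraries left out. By DESeq2, calls were 2 for iNKT2-like, 12 for interferon-responding and 7 for cycling cells, fits added after seeing the data. The interaction had 10 calls, against 17 with DESeq2's size factors, 58 with no filter and 17 at each other resolution. An arm left with 1 library is assumed to vary like the other.

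Signs changed as follows, none with a call. With libraries left out, the all iNKT differences ranged from -0.41 to 0.69 for Klrc1, -0.28 to 0.66 for Klrc2, -0.013 to 0.27 for Klre1, -0.31 to 0.19 for Klrk1, -0.46 to 0.57 for Klrb1c (-0.057 without WT 2), -0.50 to 0.075 for Hcst and -0.64 to 0.093 for Tyrobp. In iNKT1-like cells they ranged from -0.28 to 0.076 for Klrd1, -0.25 to 0.80 for Klrc1, -0.12 to 0.75 for Klrc2, -0.16 to 0.31 for Klrk1, -0.31 to 0.68 for Klrb1c, -0.47 to 0.086 for Fcer1g, -0.38 to 0.22 for Hcst (0.074 without ACC1 KO 1) and -0.51 to 0.25 for Tyrobp. Klrk1 was 0.047 with the same mix of classes and -0.092 with the same mix of clusters. The interaction of Klrc2 was 0.043 at resolution 0.5 and 0.33 at resolution 2, where Klrd1 was 0.065, Klre1 0.096 and Klrb1c 0.18. The causes were not tested.

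The replicate numbers are not stated to pair the libraries, although expression was scaled within each number before clustering. With a replicate block, counts of genes called were 1610 (10.9% of those tested) for all iNKT, 1248 (9.14%) for iNKT1-like, 536 (5.18%) for interferon-responding, 130 for cycling and 32 for iNKT2-like cells, the last 3 added after seeing the data. The block called 3 of the 10 genes in all iNKT cells (Klri2 -0.48, Fcer1g -0.33, Tyrobp -0.33), 3 in iNKT1-like cells (Klrc1 0.28, Klrc2 0.31, Klri2 -0.32) and 4 in interferon-responding cells (Klrc1 0.47, Klrc2 0.38, Klrb1c 0.30, Tyrobp -0.64), and Klrc1 in cycling cells was -0.020. Same-numbered libraries deviated together (r = 0.692 over genes, 2 pairs), a hint from the data and not from the design.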
